A study of Mus musculus with 12 samples.

Results

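The expression of 34 genes of proliferation and the cell division cycle was followed in embryonic mouse gonads labelled as knockout or wild type for Cbx2, which encodes a chromobox subunit of a Polycomb repressive complex. The list was a fixed set of gene names: 8 G1 cyclins and their kinases, 8 genes of replication licensing and of the fork, 3 of nucleotide supply, 4 of entry into mitosis, 9 mitotic kinases, checkpoint and spindle genes, and 2 chromosome and proliferation markers. Each gene was read from its single-gene probe set with the highest mean over the 12 arrays, and all 34 of 34 had such a probe set among the 18193 genes measured. Gonads were taken at E11.5 (days of embryonic life), when the gonad is still turning towards testis or ovary. The 4 groups of 3 arrays were labelled Cbx2 knockout (KO) XX, KO XY, wild type (WT) XX and WT XY. KO embryos came from crosses of heterozygous animals, and the labels name neither a tissue to which the knockout was restricted nor the part of Cbx2 that was removed. Each array held gonadal cells of 2 or 3 embryos, cut by laser from frozen sections with GATA4 staining and tissue form as guide, so the spread between arrays is that between pools. Values are log2 expression, in which a difference of 1 is a doubling. A gene was called at an adjusted p under 0.05 in limma, which tests each gene against the spread between arrays and adjusts over all genes (Benjamini-Hochberg).

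A dividing cell passes from G1 into DNA replication when D-type cyclins with Cdk4 or Cdk6, and then E-type cyclins with Cdk2, inactivate the retinoblastoma protein and free E2F factors. E2F factors switch on genes of replication such as the Mcm helicase subunits. Genes of mitosis are repressed early in the cycle by the DREAM complex through an element called the CHR, often with CCAAT boxes bound by NF-Y beside it. In the early gonad the coelomic epithelium and the cells beneath it divide quickly. Proliferation at this stage is known to accompany the start of testis formation in XY embryos.

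Promoters of the genes are shown because these elements lie there, and the rule that chose the members did not use them. Cell cycle genes are known for these elements, so the shares below describe the members and test nothing. RefSeq windows of GRCm38.p6, from 250 bases before to 50 after each transcription start, were at hand for 27 of the 34 members. Both strands were searched for an E2F element (TTCCCGC or its variants with letters TTGGCGC or TTCGCGC or TTGCCGC), a CHR (TTTGAA or TTCGAA) and CCAAT. An E2F match on one strand can overlap one on the other. The E2F element was found in 10 of 27 members (37.0%), against 10.9% of 27025 genes with a window. The CHR was found in 13 of 27 (48.1%, against 21.7% of all genes) and CCAAT in 21 of 27 (77.8%, against 41.1%). In the replication group 5 of 7 windows held an E2F element. In the mitotic kinase, checkpoint and spindle group 7 of 8 held a CHR and 0 of 8 an E2F element. Of the 5 G1 cyclin and kinase windows 0 held a CHR and only that of Cdk2 an E2F element. These are matches of letters and not sites shown to be bound, and windows for Ccnd1, Ccnd2, Ccne2, Mcm4, Ccna2, Cdc25c and Aurkb were not used here.

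The 250 bases before the start are printed for 6 members, 5′ to 3′ on the strand of the gene, with matches on either strand in capitals. Mcm6 (chr1:128359706-128359955, minus strand) and Rrm1 (chr7:102441445-102441694, plus strand) are shown for the E2F element. Ccnb2 (chr9:70421555-70421804, minus strand) and Kif11 (chr19:37376132-37376381, plus strand) are shown for the CHR. The Ccnb2 window holds another CHR match, at position 5 after the start, which lies outside the printed bases. Cdk1 (chr10:69352913-69353162, minus strand) holds all 3 elements. Cdk6 (chr5:3343643-3343892, plus strand) is shown because it is the member that was called in both sexes, and its window held 0 matches to any of the 3 elements.
Mcm6: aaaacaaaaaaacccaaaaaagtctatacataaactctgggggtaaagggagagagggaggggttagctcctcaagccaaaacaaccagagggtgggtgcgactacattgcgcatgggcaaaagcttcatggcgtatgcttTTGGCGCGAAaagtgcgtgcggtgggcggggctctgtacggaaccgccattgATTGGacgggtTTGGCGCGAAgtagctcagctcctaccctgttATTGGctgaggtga
Rrm1: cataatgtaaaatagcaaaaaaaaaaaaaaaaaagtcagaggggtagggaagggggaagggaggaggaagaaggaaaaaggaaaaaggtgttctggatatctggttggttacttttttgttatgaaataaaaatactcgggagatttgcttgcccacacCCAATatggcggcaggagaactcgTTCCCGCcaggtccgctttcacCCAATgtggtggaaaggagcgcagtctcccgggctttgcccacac
Cdk1: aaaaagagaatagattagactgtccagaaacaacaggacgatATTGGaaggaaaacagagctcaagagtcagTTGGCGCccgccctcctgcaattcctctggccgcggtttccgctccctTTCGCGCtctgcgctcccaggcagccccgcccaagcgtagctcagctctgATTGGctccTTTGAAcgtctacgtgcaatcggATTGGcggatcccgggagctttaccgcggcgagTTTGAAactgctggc
Ccnb2: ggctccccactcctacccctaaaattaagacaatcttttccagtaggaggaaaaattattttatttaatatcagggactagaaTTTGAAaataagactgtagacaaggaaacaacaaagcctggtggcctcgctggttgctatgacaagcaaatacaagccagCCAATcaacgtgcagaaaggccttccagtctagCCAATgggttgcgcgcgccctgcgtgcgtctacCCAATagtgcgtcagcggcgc
Kif11: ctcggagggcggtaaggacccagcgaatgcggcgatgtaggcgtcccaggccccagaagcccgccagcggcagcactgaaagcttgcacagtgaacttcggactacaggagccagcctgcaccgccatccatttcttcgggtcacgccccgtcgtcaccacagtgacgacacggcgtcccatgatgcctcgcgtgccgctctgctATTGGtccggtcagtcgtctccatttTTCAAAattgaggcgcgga
Cdk6: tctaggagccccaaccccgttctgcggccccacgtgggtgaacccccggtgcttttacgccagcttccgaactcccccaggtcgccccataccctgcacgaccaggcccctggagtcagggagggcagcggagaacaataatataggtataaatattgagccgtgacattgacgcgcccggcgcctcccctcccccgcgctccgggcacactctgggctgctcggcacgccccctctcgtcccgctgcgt

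**Figure D1:**
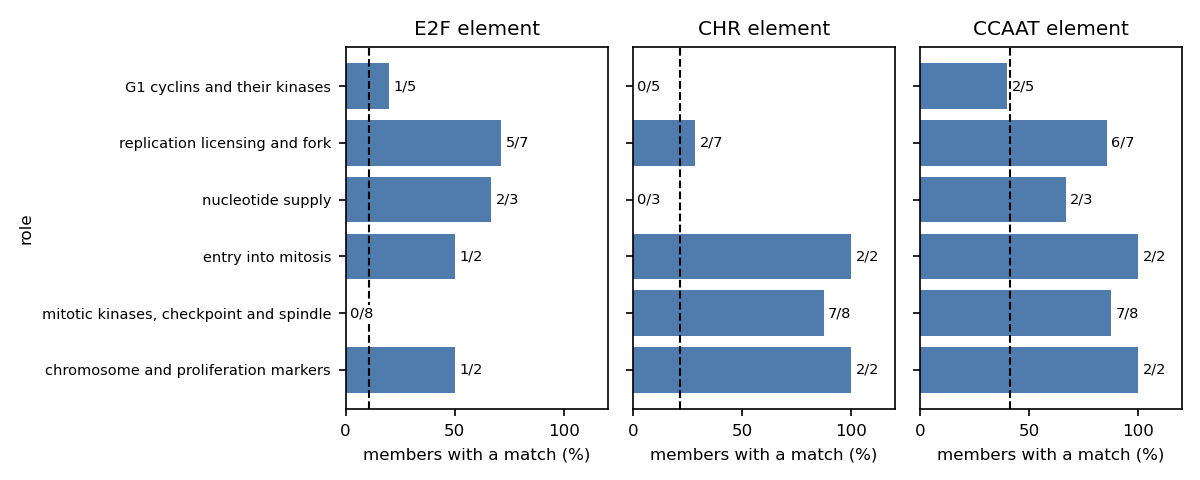
Share of the members of each role (%) whose RefSeq promoter window holds a match to the E2F element, the CHR or CCAAT; numbers beside the bars are members with a match over members with a window, and dashed lines are the share of all 27025 genes. The E2F bar is high for replication (5/7) and at 0/8 for the mitotic kinase group, which reaches 7/8 for the CHR.

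All 12 arrays matched their sex labels, with Xist between 12.55 and 12.88 in XX and between 5.81 and 6.09 in XY. For WT samples the source label reads KO XX while title and genotype read wild type, and KO and WT below follow title and genotype. Cbx2 itself did not settle this, since its probe set was higher in arrays labelled KO. It read 8.77, 8.46 and 8.57 in WT XX, 8.93, 9.04 and 8.81 in WT XY, 9.28, 9.27 and 9.48 in KO XX, and 9.43, 9.33 and 9.58 in KO XY. Whether that probe set lies in the deleted part is not known here. Mean levels of the gonadal ridge marker list (5 genes, Gata4 among them) were 10.65 to 10.87 in WT and 9.59 to 10.04 in KO arrays. Of that list 3 of 5 were lower in KO over both sexes by the test, where 13.4% of all genes were higher and 10.3% lower. Other cell type lists were counted in the same comparison. Of the coelomic epithelium list 5 of 6 were higher (mean level 7.90 to 8.19 in WT and 9.28 to 9.47 in KO), of the endothelium list 9 of 11 were lower (7.53 to 7.79, against 6.64 to 7.43), and of the macrophage list 5 of 10 were higher (6.48 to 6.93, against 6.88 to 7.503). Of the germ cell list 6 of 13 were higher (7.95 to 8.43, against 8.29 to 8.59). Of the erythroid list 1 of 8 was lower, of the mesonephros list 1 of 6 was higher and 2 were lower, and of the neural list 1 of 4 was higher, counts of a single gene or a pair that are not read as a shift of those lists. The erythroid median was -0.50 in XY and 0.0003 in XX, against 0.01 and -0.02 over all genes. In XY 4 of 8 had every KO array below every WT array (18.1% of all genes), and in XX 0 of 8 (12.5%). By the test 1 of 8 was lower in XY (6.75% of all genes) and 0 of 8 in XX (5.4%). In pooled tissue, fewer cells of a type cannot be told apart from less RNA per cell, and the part of these markers in the results on cell cycle genes was not tested.

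Few of the 34 genes were called between KO and WT, which does not show that the others were unchanged. In XY gonads 1 of 34 (2.94%) was called, Cdk6, which was higher, while 13.3% of all genes were called (6.56% higher, 6.75% lower). In XX gonads 2 of 34 (5.88%) were called, Cdk6 and Ccnd2, both higher, while 13.7% of all genes were called (8.3% higher, 5.4% lower). Over both sexes 3 of 34 (8.82%) were called, Cdk6 and Ccnd2 higher and Ccnd1 lower, against 23.8% of all genes (13.4% higher, 10.3% lower). All 3 are G1 genes, and of the 26 members with later roles 0 were called in any of the 3 comparisons. At an unadjusted p under 0.05 there were 9 members in XY, 4 in XX and 4 with the sexes pooled. The share of all genes under that cut was not counted, so such numbers, here and below, are not read as an excess. The median difference of the members was -0.09 in XY (0.01 over all genes) and 0.10 in XX (-0.02). With the sexes pooled it was 0.01 (-0.01). The 95% intervals of all 34 members lay within a change of 1 on the log2 scale in each of these comparisons. Within 0.5 lay 20 of them in XY, 27 in XX and 32 with the sexes pooled. The median SD within groups was 0.148 for the members and 0.167 for all genes. All members but Tyms lay above the level of the median gene, so these medians cover genes of unlike level.

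**Figure D2:**
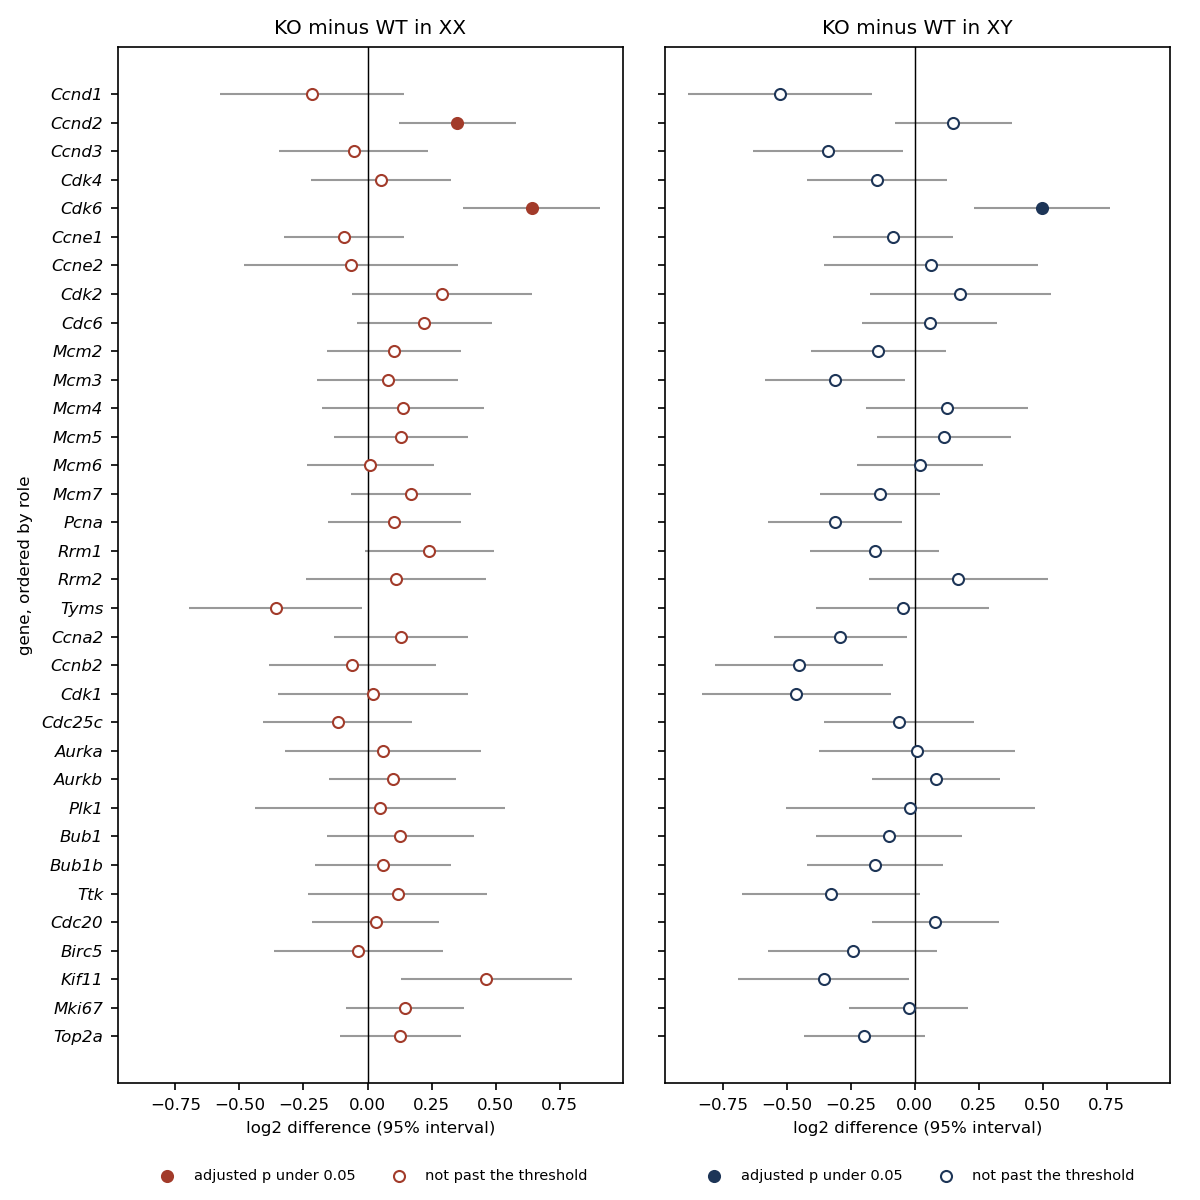
Difference between arrays labelled KO and WT (log2) with its 95% interval for each of the 34 members in XX (left) and XY (right), ordered by role; filled circles passed the test (limma, 3 arrays a group). Cdk6 is filled on both sides at 0.64 and 0.50, Ccnd2 in XX only at 0.35, and every other interval in view stays between -1 and 1.

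Cdk6, the G1 kinase that partners D-type cyclins, was the most regular responder. It read 8.05, 8.36 and 8.24 in WT XX and 8.09, 8.17 and 8.20 in WT XY. In the arrays labelled KO it read 8.99, 8.94 and 8.64 in XX and 8.51, 8.70 and 8.74 in XY. Every KO array lay above every WT array of either sex, which held for 1 of 34 members, Cdk6, and for 6.22% of all genes. The difference was 0.64 ± 0.12 in XX (SE; 1.56-fold, adjusted p = 0.00278 in limma) and 0.50 ± 0.12 in XY (1.41-fold, adjusted p = 0.0152). Over both sexes it was 0.57 ± 0.09 (adjusted p = 0.000233). The call in XX and that over both sexes held under every alternative run, with adjusted p from 0.00158 to 0.0397 and from 0.000135 to 0.0255. The call in XY was lost without KO XY replicate 2, KO XY replicate 3 or WT XY replicate 1 (adjusted p up to 0.0684), when probe sets were averaged (0.15, adjusted p = 0.437), and with an RNA control as covariate (0.32 ± 0.18, adjusted p = 0.504). The other 2 probe sets of the gene did not all follow. The brighter of them read 7.07, 7.12 and 7.33 in WT XX against 7.96, 7.57 and 7.65 in KO XX (0.55 ± 0.14, adjusted p = 0.0188 over all probe sets). In XY it read 7.43, 7.56 and 7.56 in WT against 7.57, 7.37 and 7.80 in KO, groups that overlap (0.06 ± 0.14, adjusted p = 0.858). The dimmest differed by -0.09 in XX and -0.10 in XY and was not called.

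The D-type cyclins, which bring Cdk4 and Cdk6 to the retinoblastoma protein, did not move one way. Ccnd2 read 10.38, 10.57 and 10.59 in WT XX and 10.97, 10.77 and 10.85 in KO XX, with no overlap (0.35 ± 0.11, adjusted p = 0.042). In XY it read 10.68, 10.55 and 10.49 in WT and 10.75, 10.67 and 10.76 in KO, where the groups overlap (0.15 ± 0.11, adjusted p = 0.425). Over both sexes Ccnd2 rose by 0.25 ± 0.08 (adjusted p = 0.0258). The call in XX held under 7 of 21 alternatives (adjusted p 0.0309 to 0.497), and leaving out any array but KO XX replicate 2, KO XY replicate 2 or WT XY replicate 1 ended it. Over both sexes it held under 11 of 20 and was lost without KO XX replicate 1, KO XY replicate 1 or 3, WT XX replicate 1, or WT XY replicate 2 or 3. Averaged over its probe sets, Ccnd2 differed by 0.01 over both sexes (adjusted p = 0.945). None of the 6 other Ccnd2 probe sets was called in the 3 comparisons, and over both sexes their differences ran from -0.17 to 0.25.

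Ccnd1 read 9.89, 9.61 and 9.62 in WT XY against 9.10, 9.07 and 9.37 in KO XY, with no overlap. The difference of -0.53 ± 0.17 missed the threshold (adjusted p = 0.0533). In XX it read 9.36, 10.02 and 9.91 in WT, the low value being replicate 1, and 9.74, 9.35 and 9.55 in KO (-0.22 ± 0.17, adjusted p = 0.443). Over both sexes Ccnd1 fell by 0.37 ± 0.12 (adjusted p = 0.0348), a call that 12 of 20 alternatives kept, with adjusted p from 0.00234 to 0.0945. It was lost without KO XX replicate 2 or 3, KO XY replicate 1 or 2, WT XX replicate 2 or 3, or WT XY replicate 1. Of its other probe sets one was also lower over both sexes (-0.58 ± 0.15, adjusted p = 0.0112) and one was not (-0.02 ± 0.18, adjusted p = 0.965). Ccnd3 read 9.98, 10.07 and 9.93 in WT XY and 9.61, 9.50 and 9.85 in KO XY, again without overlap (-0.34 ± 0.14, adjusted p = 0.126). Its difference in XX was -0.05 ± 0.14.

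**Figure D3:**
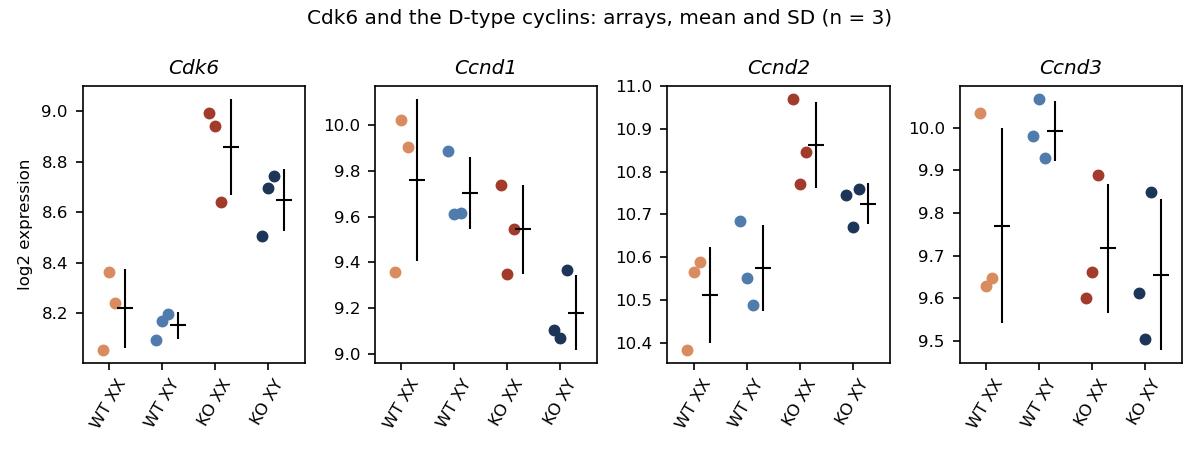
Log2 expression of Cdk6, Ccnd1, Ccnd2 and Ccnd3 in each array (points) with the mean and SD of each group (n = 3); the vertical axes differ and do not start at 0. Cdk6 lies between 8.51 and 8.99 in the arrays labelled KO and between 8.05 and 8.36 in WT, while Ccnd1 in KO XY (9.07 to 9.37) sits below WT XY (9.61 to 9.89).

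The other G1 members showed no call. Cdk4, the second D-cyclin kinase, differed by 0.05 ± 0.13 in XX and -0.15 ± 0.13 in XY. Cdk2, the kinase of the E-type and A-type cyclins, differed by 0.29 ± 0.16 and 0.18 ± 0.16. The E-type cyclins, which start replication with Cdk2, gave -0.09 ± 0.11 and -0.08 ± 0.11 for Ccne1 and -0.06 ± 0.19 and 0.06 ± 0.19 for Ccne2. Ccne2 had a wide spread in WT XX, where replicate 1 read 8.48 and the others 9.32 and 9.26.

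Genes of replication gave small differences, none of them called. Cdc6, Mcm4, Mcm5 and Mcm6 were positive in both sexes, and Mcm2, Mcm3, Mcm7 and Pcna were positive in XX and negative in XY, except that repeated quantile normalization turned Mcm3 negative in XX and Mcm6 negative in both. The group holds Cdc6, which loads the helicase, Mcm2 to Mcm7, its subunits, and Pcna, the sliding clamp of the polymerases. In XX all 8 differences were positive, from 0.01 (Mcm6) to 0.22 (Cdc6), and 0 of 8 were called (0 at an unadjusted p under 0.05). In XY they ran from -0.31 (Mcm3) to 0.13 (Mcm4), with 4 of 8 positive and 0 of 8 called, 2 of them at an unadjusted p under 0.05. Those were Mcm3 and Pcna. Mcm3 read 10.23, 10.23 and 10.25 in WT XY and 9.90, 9.90 and 9.98 in KO XY (-0.31 ± 0.13, adjusted p = 0.134). Pcna read 11.92, 11.89 and 11.88 in WT XY and 11.70, 11.46 and 11.60 in KO XY (-0.31 ± 0.12, adjusted p = 0.115). In both genes the WT XY arrays lay close together and above all KO XY arrays.

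The genes of nucleotide supply held the ribonucleotide reductase subunits Rrm1 and Rrm2, which make deoxyribonucleotides, and the thymidylate synthase gene Tyms. Rrm1 read 10.76, 11.001 and 11.05 in WT XX and 11.09, 11.08 and 11.37 in KO XX, against 10.96, 11.02 and 11.06 in WT XY and 10.90, 10.76 and 10.90 in KO XY. The KO arrays lay above WT in XX (0.24 ± 0.12, adjusted p = 0.207) and below it in XY (-0.16 ± 0.12, adjusted p = 0.46), with neither called. Rrm2 differed by 0.11 ± 0.16 in XX and 0.17 ± 0.16 in XY. Tyms was the only member at or below the level of the median gene, and its difference of -0.36 ± 0.16 in XX (adjusted p = 0.159) rests on a dim probe set. Other Tyms probe sets, dimmer still, were called over both sexes but in neither sex alone.

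Entry into mitosis depends on Cdk1 with its cyclins, here Ccna2 and Ccnb2, and on the phosphatase Cdc25c, which activates Cdk1. In XY all 4 differences were negative, with a median of -0.37, and 0 of 4 were called, with 3 at an unadjusted p under 0.05. Ccnb2 read 10.59, 10.67 and 10.63 in WT XY and 10.12, 10.12 and 10.29 in KO XY (-0.45 ± 0.15, adjusted p = 0.0668). Cdk1 read 10.33, 10.42 and 10.11 in WT XY and 10.08, 9.49 and 9.89 in KO XY (-0.46 ± 0.17, adjusted p = 0.0975). Ccna2 read 10.15, 9.89 and 9.85 against 9.85, 9.52 and 9.64 (-0.29 ± 0.12, adjusted p = 0.144). In each of these 3 the KO XY arrays lay below all WT XY arrays. In XX the differences were -0.06 ± 0.15 for Ccnb2, 0.02 ± 0.17 for Cdk1, 0.13 ± 0.12 for Ccna2 and -0.12 ± 0.14 for Cdc25c, and the groups overlapped.

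Among the mitotic kinases, checkpoint and spindle genes 0 of 9 were called in either sex, with 1 at an unadjusted p under 0.05 in each. The spindle motor Kif11, which pushes the poles apart, had the widest contrast between the sexes. It read 8.52, 8.14 and 8.24 in WT XX and 8.50, 8.71 and 9.09 in KO XX (0.46 ± 0.16, adjusted p = 0.0649), where KO XX replicate 1 lay below the highest WT array. It read 8.40, 8.78 and 8.54 in WT XY and 8.23, 8.12 and 8.32 in KO XY (-0.35 ± 0.16, adjusted p = 0.164), without overlap. The dimmer probe sets of Kif11 did not show the positive difference in XX (-0.02 ± 0.22 and -0.29 ± 0.15). The checkpoint kinase Ttk differed by 0.12 ± 0.16 in XX and -0.33 ± 0.16 in XY, and Bub1b, which delays anaphase, by 0.06 ± 0.12 and -0.15 ± 0.12. The kinases Aurka, Aurkb, Plk1 and Bub1, the anaphase activator Cdc20 and the chromosomal passenger Birc5 ranged from -0.04 to 0.13 in XX and from -0.24 to 0.08 in XY.

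The common markers of proliferation did not change by the test. Mki67, the gene of the Ki-67 antigen found in cycling cells, read 12.02, 11.96 and 12.17 in WT XX against 12.18, 12.08 and 12.34 in KO XX. In XY it read 11.95, 12.07 and 12.02 in WT against 12.05, 11.90 and 12.01 in KO. The groups overlap in both sexes, and the differences were 0.15 ± 0.11 and -0.02 ± 0.11, with 95% intervals from -0.09 to 0.38 and from -0.26 to 0.21. Top2a, the topoisomerase that untangles sister chromatids, read 12.09, 12.11 and 12.09 in WT XY and 12, 11.79 and 11.91 in KO XY (-0.20 ± 0.11, adjusted p = 0.291) and differed by 0.13 ± 0.11 in XX.

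Placement of the arrays was counted apart from the test. In XY 14 of 34 members (41.2%) had every KO array below every WT array, with differences from -0.53 to -0.14, while 18.1% of all genes did so. They were Ccnd1, Ccnd3, Mcm2, Mcm3, Mcm7, Pcna, Rrm1, Ccna2, Ccnb2, Cdk1, Bub1b, Ttk, Kif11 and Top2a. In the other direction stood Cdk6, Mcm5 and Rrm2 (8.82%, against 18.9% of all genes). In XX 3 members had every KO array above every WT array (Ccnd2, Cdk6 and Rrm1; 8.82%, against 14.1% of all genes) and 1 below (Tyms; 2.94%, against 12.5%). Without WT XX replicate 1 there were 5 above and 4 below, against 19.2% and 19.6% of all genes. By the sign of the difference 15 members were lower in XY and higher in XX, 11 were higher in both, 7 lower in both and 1 (Ccne2) higher in XY and lower in XX. When quantile normalization was repeated, 8 of the signs in XX turned, none of them of a called gene, and the median in XX went from 0.10 to 0.0058.

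RNA quality moved with the XY comparison. The difference between the 3′ and 5′ Gapdh control probe sets was 4.91 ± 0.12 in KO XY (SD, n = 3) and 4.13 ± 0.38 in WT XY. This difference grows as RNA, or the product amplified from it, is shorter at its 5′ end, and these were not told apart. The control difference was 4.05 ± 0.22 in KO XX and 4.31 ± 0.45 in WT XX. KO XY was above WT XY by 0.79 (exact permutation test, two-sided, p = 0.1, the smallest that 3 against 3 arrays allow). With this control as a covariate 0 members were called in XY and the median was -0.18, with 28 of 34 members lower, while 4.29% of all genes were called. In XX the count stayed at 2 with the covariate and the median was 0.12. Over both sexes 1 member was higher and 1 lower with it, and Ccnd2 was no longer called (0.21, adjusted p = 0.105). Other weightings raised the count in XY: it was 6 of 34 with array weights (24.2% of all genes) and 5 of 34 with only the XY groups in the fit (20.9%), all but Cdk6 lower.

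**Figure D4:**
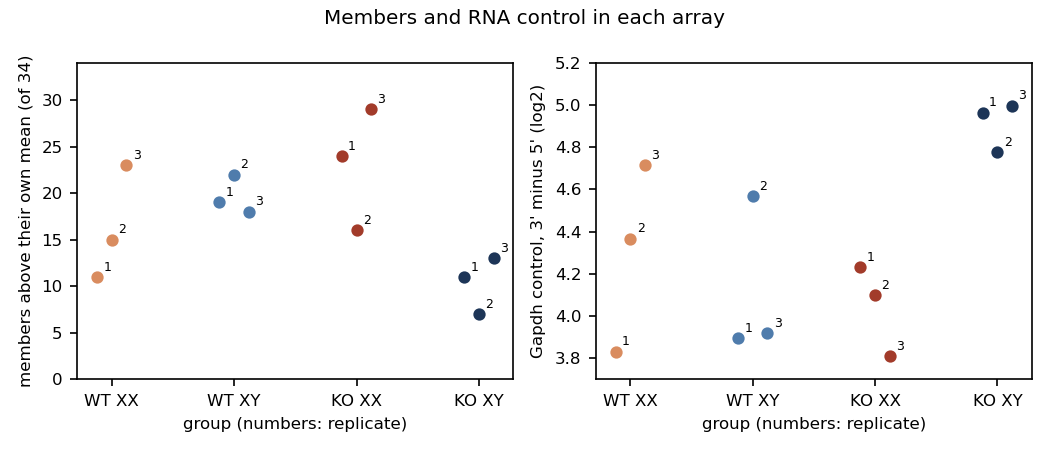
Left, number of the 34 members above their own mean over the 12 arrays in each array; right, the 3′ minus 5′ Gapdh control (log2) of the same arrays, with replicate numbers beside the points. KO XY has 7 to 13 members above their mean and the highest control values (4.78 to 4.998), and KO XX has 16 to 29 members above their mean at 3.81 to 4.23.

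The members also varied from array to array within a group. The number above their own mean was 11, 15 and 23 in WT XX, 19, 22 and 18 in WT XY, 24, 16 and 29 in KO XX, and 11, 7 and 13 in KO XY, so that every KO XY array lay below every WT XY and every KO XX array. KO XX replicate 3 was the highest of its group for 20 of 34 members, and replicate 2 the lowest for 21. WT XX replicate 1 lay outside the other arrays of its group, by more than the distance between those, for 21 of 34 members (46.1% of all genes). It was not alone in this. The count was 17 for KO XX replicate 3 (30.9%), 16 for KO XY replicate 2 (46.9%) and 14 for WT XY replicate 1 (41.4%). Plk1 had the widest spread within groups (SD 0.342) and Ccnd2 the narrowest (0.094).

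**Figure D5:**
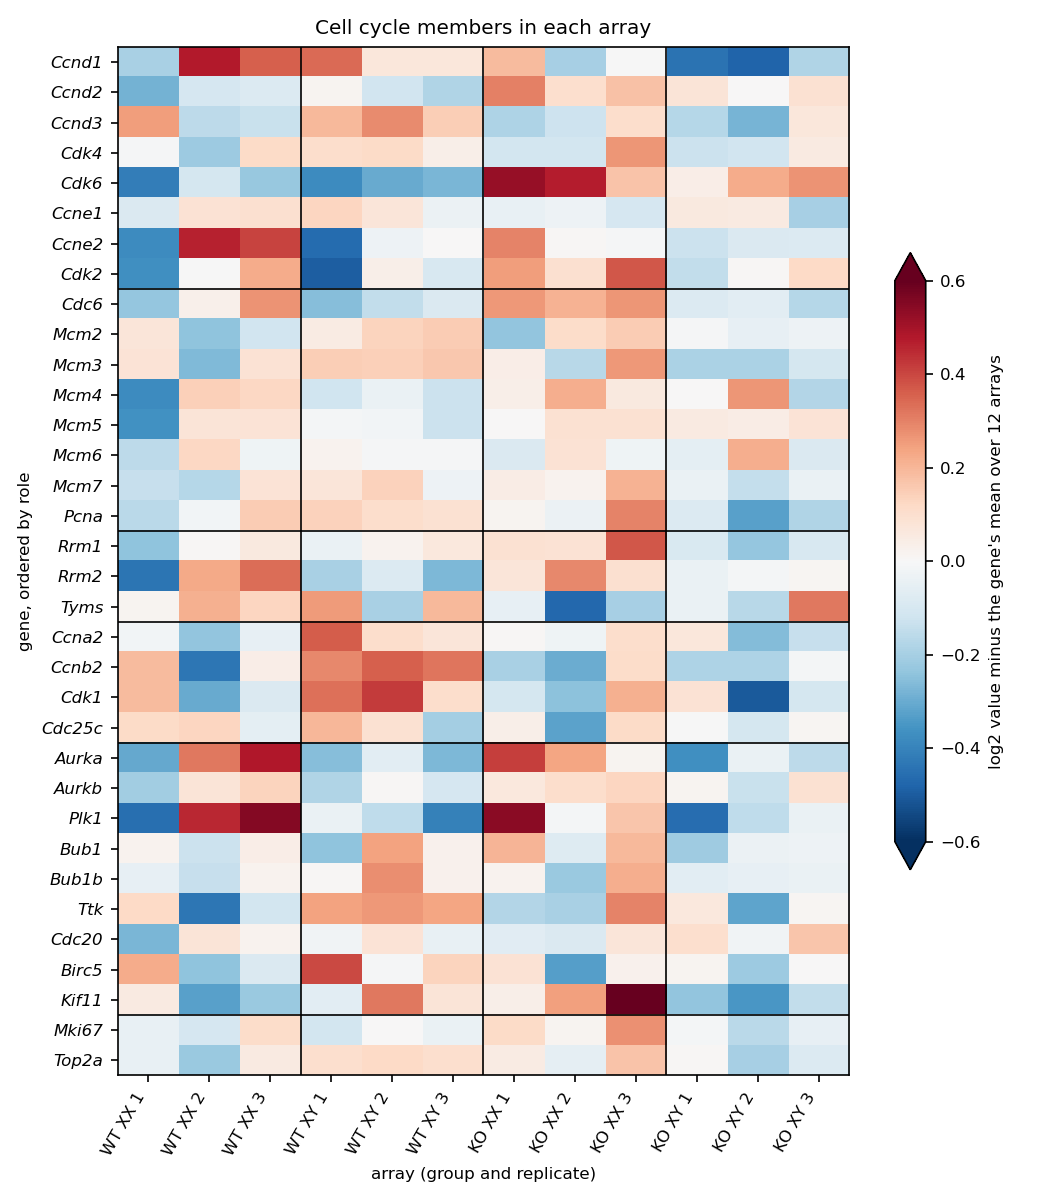
Log2 value of each member in each array minus the gene's mean over the 12 arrays, with genes ordered by role (horizontal lines) and arrays by group (vertical lines); colours saturate beyond 0.6. Cdk6 is blue in all 6 WT arrays and red in all 6 arrays labelled KO, and WT XX 1 is blue where WT XX 2 and 3 are red for Plk1, Aurka, Ccne2 and Rrm2.

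Comparison of the sexes asked whether cell cycle genes already differed between XX and XY gonads. In WT 0 of 34 members were called (0.0605% of all genes), with 3 at an unadjusted p under 0.05, and the median was 0.05 (0.03 over all genes). Every WT XY array lay above every WT XX array for 5 members (14.7%, against 10% of all genes), namely Mcm3, Ccna2, Ccnb2, Ttk and Top2a. These are the WT XY arrays that also enter the comparison with KO XY. Ccnb2 gave 0.39 ± 0.15 (adjusted p = 0.46) and Ttk 0.39 ± 0.16 (adjusted p = 0.462).

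This comparison turned on WT XX replicate 1. Without that array 5 of 34 members were called, while 10.3% of all genes were. The B-type cyclin gene Ccnb2 was then higher in WT XY by 0.52 ± 0.15 (adjusted p = 0.0436). The other 4 were lower in WT XY: Plk1 by -0.70 ± 0.17 (adjusted p = 0.02), Ccne2 by -0.60 ± 0.15 (0.021), Aurka by -0.60 ± 0.14 (0.0186) and Rrm2 by -0.46 ± 0.12 (0.0212). For Plk1 replicate 1 read 8.55 in WT XX and the others 9.46 and 9.56, against 8.97, 8.86 and 8.60 in WT XY. For Aurka it read 9.21 and the others 9.84 and 10.00, against 9.27, 9.46 and 9.25. Without it the arrays did not overlap for 10 members in each direction (24.7% and 19.6% of all genes). With all 12 arrays kept but weighted, 2 members were called, while 6.55% of all genes were.

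In arrays labelled KO 0 of 34 members were called between the sexes (0.033% of all genes), with 6 at an unadjusted p under 0.05. The median was -0.14, against 0.03 over all genes, and 28 of 34 members were lower in XY. For 11 members (32.4%, against 8.01% of all genes) every KO XY array lay below every KO XX array, with differences from -0.55 to -0.14. They were Ccnd2, Ccne2, Cdc6, Mcm7, Pcna, Rrm1, Rrm2, Aurka, Plk1, Kif11 and Mki67. Kif11 gave -0.55 ± 0.16 (adjusted p = 0.415) and Cdc6, at 10.36, 10.31 and 10.36 in KO XX against 10.02, 10.03 and 9.93 in KO XY, gave -0.35 ± 0.12 (adjusted p = 0.448). The Gapdh control differed by 0.87 between the same groups (exact permutation test, two-sided, p = 0.1, the lowest these numbers of arrays permit). Adding that control to the model gave a median of -0.25. The KO XY arrays are the same as in the comparison with WT XY, so the placements in both comparisons share them.

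The test of whether the KO difference itself varied with sex called 0 of 34 members (0.0055% of all genes), with 5 at an unadjusted p under 0.05. The median of XY minus XX was -0.20, against 0.00 over all genes. Kif11 gave -0.82 ± 0.22 (adjusted p = 0.693), with a 95% interval from -1.29 to -0.35. For Cdk6 the value was -0.14 ± 0.18 and for Mki67 -0.17 ± 0.15. The intervals are wide here, and for only 8 members did they lie within 0.5.

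Other genes of the same pathways were counted against the same shares of all genes called, 13.3% in XY, 13.7% in XX and 23.8% with the sexes pooled. Each was read from its brightest probe set alone, and where such a gene had further probe sets these were not compared. Of 8 CDK inhibitors 4 were called over both sexes, 1 higher and 3 lower. Cdkn2c, the inhibitor p18 that binds Cdk4 and Cdk6, read 7.59, 7.70 and 7.41 in WT XX, 7.78, 7.60 and 7.91 in WT XY, 9.28, 9.08 and 9.22 in KO XX and 8.87, 8.81 and 9.03 in KO XY (1.38 ± 0.09, adjusted p = 3.39e-08). Cdkn1a, the inhibitor p21 downstream of p53, read 9.50, 9.91 and 9.32 in WT XX, 9.28, 9.08 and 9.38 in WT XY, 7.73, 7.76 and 8.15 in KO XX and 7.87, 8.12 and 7.77 in KO XY (-1.51 ± 0.12, adjusted p = 3.05e-07). For both genes the KO and WT arrays were far apart in either sex. Cdkn1c fell by 0.40 ± 0.09 and Cdkn3 by 0.29 ± 0.09.

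Of 44 further replication and nucleotide genes measured, 3 were lower and 0 higher in XY, 1 higher and 1 lower in XX, and 2 lower and 0 higher over both sexes, each a smaller share than that of all genes. Orc1, the largest subunit of the origin recognition complex, was the gene called in each. It read 8.81, 8.86 and 8.61 in WT XX, 8.32, 8.37 and 9.07 in WT XY, 7.63, 7.61 and 7.92 in KO XX and 7.34, 7.38 and 7.03 in KO XY. Its difference was -1.19 ± 0.13 over both sexes (adjusted p = 7.18e-06). Orc4 (-0.67 ± 0.20) and the thymidine kinase gene Tk1 (-0.54 ± 0.14) were the other calls in XY, and Cdc7, a kinase that fires origins (0.41 ± 0.11), the other in XX.

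Of 54 further mitosis genes 2 were lower and 0 higher in XY, namely Cenpi (-0.74 ± 0.16) and the spindle checkpoint gene Mad2l1 (-0.44 ± 0.10), and 2 were higher and 0 lower in XX, namely Racgap1 (0.40 ± 0.12) and Nuf2 (0.36 ± 0.11), again smaller shares than the 13.3% and 13.7% of all genes. Over both sexes 1 was higher and 2 were lower. Of 20 genes of E2F factors, pocket proteins and the MuvB core 0 were called in XY (1 at an unadjusted p under 0.05) and 2 in XX, both higher, Rbl1 (0.51 ± 0.14) and the E2F partner gene Tfdp2 (0.59 ± 0.18), against 13.7% of all genes in XX. Over both sexes 3 were higher and 1 was lower, the retinoblastoma gene Rb1 among the higher (0.31 ± 0.11, adjusted p = 0.0463). Of 10 checkpoint genes the kinase genes Chek1 (0.40 ± 0.12) and Chek2 (0.51 ± 0.13) were higher in XX, where 8.3% of all genes were, and 0 were called in XY (1 at an unadjusted p under 0.05). The medians of the lists ran from -0.13 (replication) to 0.08 (checkpoint) in XY and from -0.12 (CDK inhibitors) to 0.22 (checkpoint) in XX, against 0.01 and -0.02 over all genes.

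Further probe sets gave a second reading of 26 members. Of these 50 probe sets, 2 were called in XY, both lower, and 2 in XX, both higher. With the sexes pooled 6 were called, 2 higher and 4 lower. Of all single-gene probe sets 10.9% were called in XY, 11% in XX and 20.3% with the sexes pooled.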

How the data were processed

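Total RNA from 12 pools of laser-captured gonadal cells was amplified in a 2-cycle reaction and hybridised to Affymetrix mouse arrays. The deposited values are log2 expression after RMA (background correction, quantile normalization and summary by probe set). Per the submitters' processing notes the tools were Affymetrix Expression Console, RMA and affy, with versions not given in the sources used here. Deposited values were used unchanged. Of 45101 probe sets 34945 belonged to a single gene, and the one with the highest mean represented each of 18193 genes. Differences were tested in R 4.3.3 with limma 3.58.1 (lmFit, eBayes, 4 group means, 8 residual degrees of freedom, 6 contrasts, two-sided, Benjamini-Hochberg over all genes), and values are differences ± SE. Labels name separate pools but not litters.

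The members and lists were chosen with earlier results of these data known, so no test over a list was made. Every member could be named; of the pathway lists, up to 4 called genes per list and contrast with the smallest p. Single values per array were compared by exact permutation tests. The fits were tested on simulated data. The number of arrays limits the precision. Alternatives were repeated quantile normalization, median centring, a filter on low values, the mean of probe sets, trend and robust priors, array weights, a replicate block, the Gapdh covariate, only the groups compared, and leaving out each array.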

Additional observations from a re-analysis of the deposited data

Results flagged for a closer look

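Rrm1, the large subunit of ribonucleotide reductase, was the 1 member whose KO and WT arrays did not overlap in either sex, with opposite directions. Every KO XX array lay above every WT XX array and every KO XY array below every WT XY array, and the KO difference in XX exceeded that in XY by 0.40 on the log2 scale. This placement of arrays was not tested as such. The share of all genes placed in this way was not counted, so 1 member is not read as an excess. In limma's test of the difference, XY minus XX was -0.40 ± 0.17 (adjusted p = 0.758, unadjusted p = 0.0313), and it was not called. Of its dimmer probe sets the brighter differed in the same directions (0.34 ± 0.22 in XX and -0.47 ± 0.22 in XY) and the dimmest in the opposite ones (-0.08 ± 0.24 and 0.47 ± 0.24).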

How the results depend on the processing

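Under 21 alternatives no called difference changed its sign. The share of all genes called moved with the setting as well. In XY it was 13.3% in the main fit, 4.29% with the Gapdh covariate, 24.2% with array weights and 20.9% with only the groups compared. For XY against XX in WT it was 0.0605%, 6.55% with array weights and 10.3% without WT XX replicate 1. Shares under the other settings are not given here, so a changed count is not read as particular to the members. The count of members called in XY (1) became 3 with repeated quantile normalization, 2 with only genes above the median gene, 2 with trend and robust priors, 6 with array weights (1 higher, 5 lower), 0 with the Gapdh covariate and 5 with only the groups compared (1 higher, 4 lower); with each array left out it ran from 0 to 3, being 0 without KO XY replicate 2 or 3 or WT XY replicate 1 and 3 without WT XX replicate 1 or 2. The count in XX (2) became 1 with repeated quantile normalization and 1 with only the groups compared, and 1 to 2 with an array left out (without KO XX replicate 3, KO XY 1 or 3, WT XX 2 or 3, or WT XY 2 or 3). Over both sexes (3) it became 1 with the mean of all probe sets, 2 with the Gapdh covariate (1 higher, 1 lower) and 1 to 3 with an array left out (1 without KO XY replicate 1). For XY against XX in WT (0) it became 2 with array weights and 0 to 5 with an array left out (5 without WT XX replicate 1). In KO and for the difference between the sexes it was 0 to 0. The median in XX became 0.0058 with repeated quantile normalization. Medians with an array left out ran from -0.137 to -0.0713 in XY, 0.0512 to 0.158 in XX, -0.0342 to 0.0216 over both sexes, -0.0115 to 0.0955 for the sexes in WT and -0.169 to -0.0977 in KO. Single-gene results were followed only for the 21 that were called in the main fit or under an alternative. Over their alternative fits 370 kept their side of the threshold, 36 lost a call and 31 gained one. Results never called are not in these counts. The labels do not say whether same-numbered samples share a litter or day. Of 18 same-number pairs 5 correlated over 0.1 (range -0.212 to 0.279). Pairs of unlike number were not compared, so this does not settle whether replicate numbers pair the samples. With the replicate block the count was 2 in XY, 1 in XX, 3 over both sexes and 0 in the others. With 3 arrays a group, a difference that missed the threshold is not shown to be absent.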

Other observations

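Other probe sets of the members gave calls that the chosen ones did not. The second probe set of the A-type cyclin Ccna2, which acts in replication and in entry into mitosis, was lower in KO XY (-0.59 ± 0.17, adjusted p = 0.0379) and over both sexes (-0.39 ± 0.12, adjusted p = 0.031). The dimmest of the Rrm2 probe sets was lower in KO XY (-0.68 ± 0.16, adjusted p = 0.013), against 0.17 ± 0.16 for the chosen one. A dimmer probe set of the checkpoint kinase Bub1 was higher in KO XX (0.78 ± 0.20, adjusted p = 0.0192), against 0.13 ± 0.13 for the chosen one. Over both sexes that Rrm2 probe set was called too, and so were dimmer probe sets of Tyms, where the chosen Tyms one was not (-0.20 ± 0.11, adjusted p = 0.221). The sign of a further probe set was that of the chosen one for 29 of 50 in XY, 29 of 50 in XX and 28 of 50 over both sexes.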
